A study of Mus musculus with 16 samples.

Results

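The genes described here encode the striated-muscle myosin chains of the heart and the kinase that phosphorylates one of them. They are the heavy chains Myh6, Myh7 and Myh7b, the essential light chains Myl1, Myl3 and Myl4, the regulatory light chains Myl2 and Myl7, and the kinase Mylk3. They were taken by symbol from a table of read counts, and 9 of its 54132 rows matched. All 9 were among the 16051 genes with enough reads to be tested.

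The libraries came from dissected heart ventricles of 8-week-old mice. All of these mice carried floxed alleles of Rbpms (Rbpms fl/fl), a gene for an RNA-binding protein. The mice of the 4 knockout libraries (cKO) also carried Myh6-Cre. This recombinase is driven by the promoter of Myh6, a gene described here, which is active in heart muscle cells. The mice of the 4 control libraries had no Cre. An effect of Cre itself and an effect of the loss of Rbpms therefore cannot be told apart. Each genotype had 3 libraries labelled male and 1 labelled female, and the female is replicate 3 in both. Another 8 samples, from newborn mice, are not analysed here. Each library has its own sex label, but the labels do not describe litters or pooling, so the p-values speak only of variation among these 8 libraries.

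Myosin is the motor of the thick filament. Each molecule holds a pair of heavy chains, whose heads split ATP and pull on actin, and each head carries an essential and a regulatory light chain. The adult mouse ventricle uses mainly Myh6 (alpha heavy chain, fast), while Myh7 (beta heavy chain, slow) prevails before birth and is known to return in stressed or hypothyroid hearts. Myl2 and Myl3 are the ventricular light chains, and Myl4 and Myl7 are the atrial ones.

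Totals ran from 20190334 to 24540433 counts per library, so a level of 1 CPM, the read count scaled to a common library size, stands for about 20 reads or more. CPM values below are also scaled by TMM, a correction for differences in library composition. Rbpms fell from 159.7 ± 42.8 CPM (SD, n = 4) in controls to 31.8 ± 5.82 in cKO libraries, a log2 fold change of -2.33 ± 0.20 (standard error, edgeR adjusted p = 3.54e-05). The ranges were 101.6 to 193.2 and 26.9 to 38.8, so no library went against its label. Ventricular muscle markers were abundant in every library. Summed over 12 genes, they reached 25516 to 30785 CPM in controls and 23544 to 25573 in cKO libraries. Of these genes 1 rose and 2 fell, with a median log2 fold change of -0.17, beside 19.3% of all tested genes called. Control replicate 4 stood apart by its skeletal muscle heavy chains, with Myh4 at 58.2 CPM against at most 0.308 in the other libraries. Why this library stood apart was not tested. Fits were also run without it, and values from them are given for some genes. Among 10 fibroblast markers 9 rose, among them Dpt (1.81-fold), Pdgfra (1.78-fold) and Dcn (1.86-fold), while 9.64% of all tested genes rose. The summed level of the 10 markers was 2678 to 3632 CPM in controls and 5524 to 6379 in cKO libraries. In these bulk samples, a change in the number of cells of a type and a change in RNA per cell cannot be told apart.

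A gene was called changed where its adjusted p was under 0.05 over all tested genes. Of the 16051 genes, 19.3% were called, 9.64% as higher in cKO ventricles and 9.64% as lower, and for 23.5% the CPM values of the genotypes did not overlap. Among the myosin genes 1 of 9, Myh7, was called and had genotypes that did not overlap, a share not above that background. The log2 fold change was positive for 6 of the 9, and their median was 0.26 beside 0.01 for all tested genes. Together the 9 genes held 2.66% ± 0.343 (SD, n = 4) of the scaled counts in controls, with a range of 2.20% to 3.02%. In cKO libraries they held 2.44% ± 0.140 (SD, n = 4), with a range of 2.36% to 2.65%, inside the range of the controls.

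**Figure D1:**
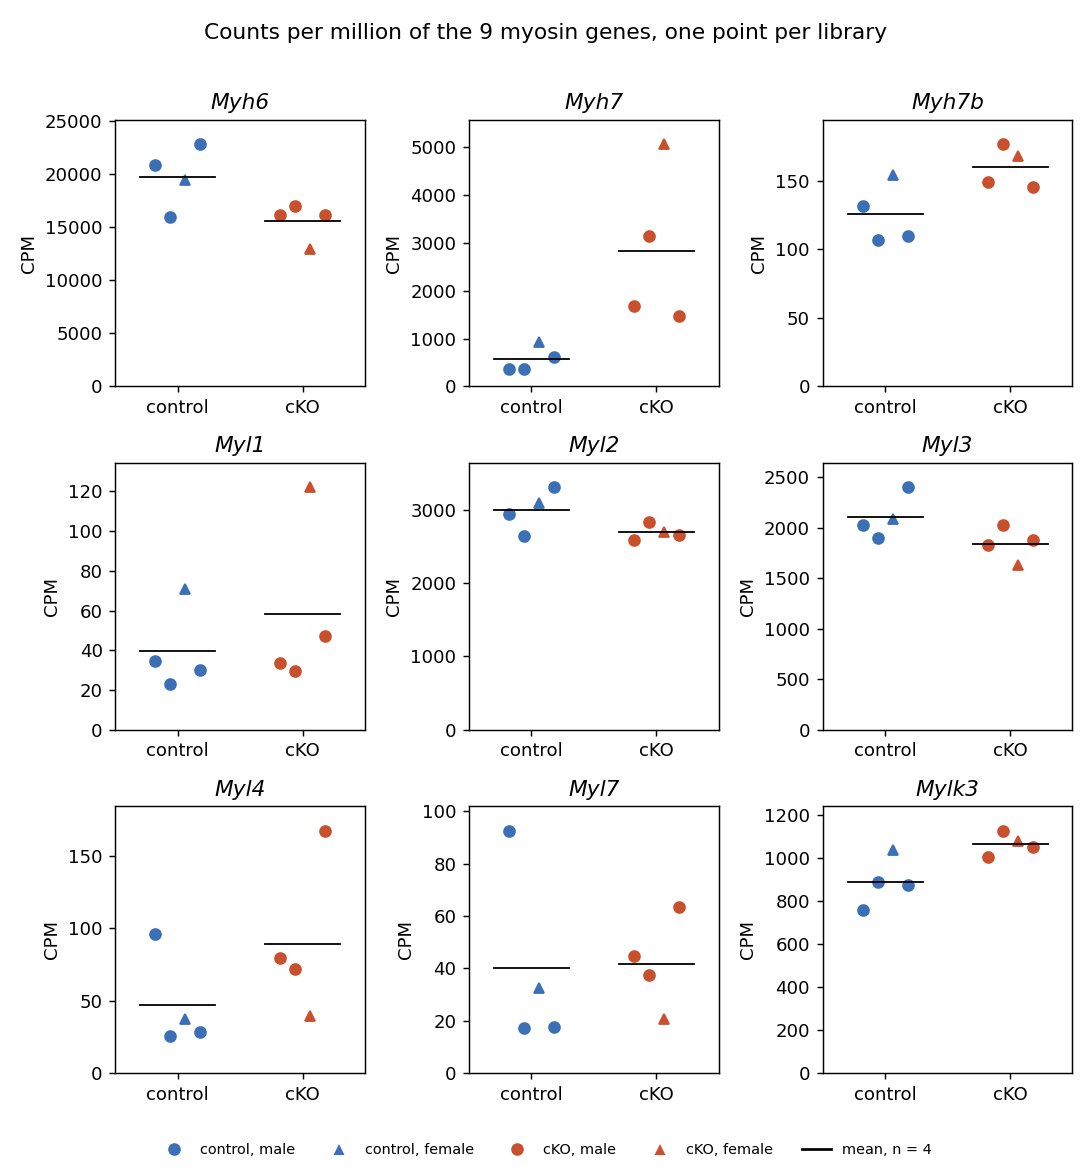
CPM of each of the 9 genes (vertical axes, linear and starting at 0) in control and cKO libraries, 1 point per library, triangles for the females, with lines at the mean of 4. The points of the genotypes are apart for Myh7 and overlap for the other 8 genes.

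The levels of different genes were compared per kilobase (kb) of their exons, taken as the union over all annotated transcripts. In controls the order of the mean CPM per kb was Myh6 (2944), Myl2 (1536), Myl3 (1030), Mylk3 (207.3), Myl7 (67.6), Myh7 (65.4), Myl1 (19.1), Myh7b (18.9) and Myl4 (10.1). With this length, the first 4 genes did not overlap with their neighbours in this order. Myl7 and Myh7 overlapped, as did Myl1, Myh7b and Myl4. In cKO ventricles Myh7 (329 CPM per kb) stood above Mylk3 (248), though their ranges overlapped, and the other genes kept their order. The order depends on the length used: per kb of the longest transcript, the control mean of Myl2 (3369) stood above that of Myh6 (3239) with overlapping libraries, and Myh7 (90.4) above Myl7 (67.6).

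Myh6, the alpha heavy chain, lies at chr14:54941921-54966927 on the minus strand (GRCm38). Its level in controls was 20844, 16000, 19513 and 22843 CPM in replicates 1 to 4. In cKO libraries it was 16194, 17050, 12976 and 16193 CPM. Control replicate 2 lay below 3 of the 4 cKO libraries, so the genotypes overlapped. The log2 fold change was -0.34 ± 0.13 and was not called (edgeR adjusted p = 0.0952). It passed when control replicate 2 was left out (adjusted p = 0.0331).

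Myh7, the beta heavy chain, lies 3756 bases from Myh6 on the same strand, at chr14:54970684-54994626. Control libraries held 359, 356, 921 and 617 CPM, and cKO libraries 1672, 3139, 5051 and 1474. The highest level within each genotype was that of the female, and the lowest cKO library was still above the highest control. Myh7 rose 5.03-fold, a log2 fold change of 2.33 ± 0.41 (edgeR adjusted p = 0.00225). The change ranged from 1.89 without cKO replicate 3 to 2.67 without control replicate 3, and passed in each of the 8 fits that left out 1 library.

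Myh7b is an ancient relative of the cardiac heavy chains, expressed at a low level in heart (chr2:155611212-155634307, plus strand). It measured 131, 107, 154.5 and 109.5 CPM in controls and 148.9, 176.6, 168 and 145.7 CPM in cKO libraries. The female control overlapped with the cKO range. Its log2 fold change of 0.35 ± 0.12 was not called (edgeR adjusted p = 0.063). It passed the threshold without control replicate 3 (0.46, edgeR adjusted p = 0.00987), in the males alone (0.44, adjusted p = 0.0200) and with sex as a covariate (0.36, adjusted p = 0.0214).

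Isoform composition was described as the share of each gene in the CPM per kb of its class. Myh7 made up 1.32%, 1.70%, 3.52% and 2.05% of heavy chain in the controls. In the cKO libraries it made up 7.39%, 12.5%, 23.1% and 6.58%. The means were 2.15% ± 0.965 and 12.4% ± 7.59 (SD, n = 4), and the genotypes did not overlap. The difference of 10.2 percentage points became 6.66 without the female cKO library, whose share was the highest. With the length of the longest transcript the mean shares of Myh7 were 2.68% in controls and 15.0% in cKO libraries. With no division by length they were 2.73% and 15.2%, and the genotypes did not overlap by either measure.

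Myh6 made up the rest, apart from a small part of Myh7b. Its share was 97.2% ± 1.04 in controls and 86.7% ± 7.66 in cKO ventricles (SD, n = 4). The ratio of Myh6 to Myh7 per kb was 74.4, 57.5, 27.2 and 47.4 in controls, and 12.4, 6.96, 3.29 and 14.1 in cKO libraries. The sum of the heavy chains overlapped between genotypes, at 3028 ± 438 CPM per kb in controls and 2673 ± 172 in cKO ventricles.

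The share of Myh7b was 0.626%, 0.662%, 0.768% and 0.474% in controls, and 0.855%, 0.910%, 0.998% and 0.844% in cKO libraries. These ranges did not overlap, although the CPM values of Myh7b did. An exact two-sided permutation test with 70 arrangements gave p = 0.0286 for Myh7 and for Myh7b, the smallest it can give. Adjusted over the 5 shares tested, exact p was 0.0714 for both, so neither share passed 0.05. Unless other shares also came near the smallest p, the adjusted value could not be lower, however large the difference. The adjusted test therefore could not decide about these shares.

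**Figure D2:**
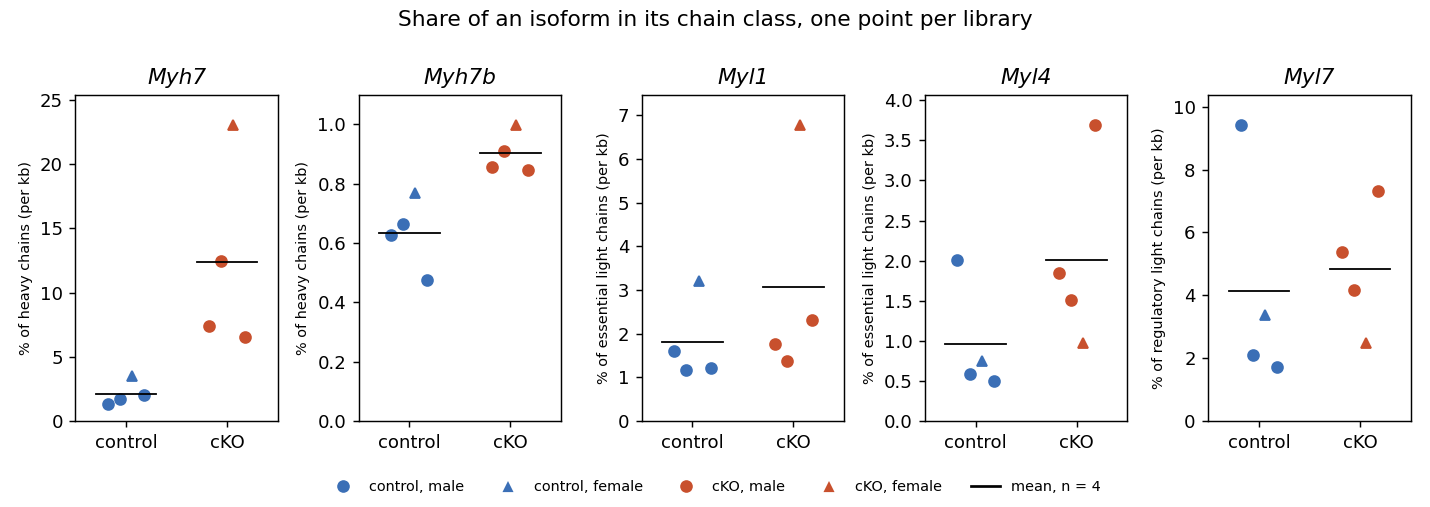
Share of 5 isoforms in their chain class (vertical axes, percent of CPM per kb, linear and starting at 0), 1 point per library, with lines at the mean of 4 and triangles for the females. The genotypes are apart for Myh7 and Myh7b and overlap for Myl1, Myl4 and Myl7.

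Myh6 and Myh7 are alike in sequence, and this bears on the counts. Of the windows of 50 bases in annotated Myh6 transcripts, 20.2% also occurred in Myh7, and of those in Myh7, 15.6% occurred in Myh6. For windows of 100 bases the shares were 10.04% and 7.71%. How reads with several alignments were counted is not given in the sources used here, so reads of the shared stretches could be lost or assigned to either gene. Light chain genes, Myh7b and Mylk3 had 0 such windows in common with any other gene examined. The genes examined were the 9 and the heavy chains of skeletal and special muscles. Stretches shared with other light chain or kinase genes were not examined.

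The promoters of Myh6 and Myh7 are shown, since the former drives the Cre and the share of the latter was higher in cKO libraries, with the known muscle element MCAT (CATTCC, on either strand) and TATAAA in capitals. They are from RefSeq (GRCm38.p6) and run from 250 bases before to 50 bases after a RefSeq start.
Myh6, chr14:54966558-54966857, minus strand: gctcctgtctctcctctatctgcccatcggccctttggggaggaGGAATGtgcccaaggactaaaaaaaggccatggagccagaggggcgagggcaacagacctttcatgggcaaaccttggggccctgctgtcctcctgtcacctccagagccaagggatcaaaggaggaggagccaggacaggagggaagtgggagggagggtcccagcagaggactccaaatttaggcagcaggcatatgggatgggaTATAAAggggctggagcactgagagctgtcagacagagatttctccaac
Myh7, chr14:54994577-54994876, minus strand: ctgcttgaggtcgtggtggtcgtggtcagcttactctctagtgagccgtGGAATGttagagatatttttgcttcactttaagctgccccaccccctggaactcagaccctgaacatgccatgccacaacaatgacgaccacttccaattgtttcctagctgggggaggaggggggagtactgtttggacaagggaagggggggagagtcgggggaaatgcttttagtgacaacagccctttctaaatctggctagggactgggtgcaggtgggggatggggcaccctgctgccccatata
The MCAT letters stood 206 bases before the Myh6 start and 201 before the Myh7 start, and occur in 14.7% of 32851 promoters of this length. RefSeq has a further Myh7 start 77 bases inside the gene, and its window (chr14:54994500-54994799) holds no MCAT letters. TATAAA occurred in the Myh6 window, where it began 1 base after the RefSeq start and not before it, and in neither Myh7 window. These letters occur in 13.6% of all promoters. The Myh6 start of RefSeq lies 320 bases inside the gene as GENCODE draws it.

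All 3 heavy chain genes host a microRNA in an intron on their own strand. The mature strands are printed with bases 2 to 8, the seed that pairs with targets, in capitals (RefSeq, GRCm38.p6).
miR-208a-3p in Myh6, chr14:54949072-54949093: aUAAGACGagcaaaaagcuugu
miR-208b-3p in Myh7, chr14:54975710-54975731: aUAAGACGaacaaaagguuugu
miR-499-5p in Myh7b, chr2:155622893-155622913: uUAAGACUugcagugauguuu
The first pair shares the seed UAAGACG, and miR-499-5p has UAAGACU. Reads over the hairpins in these libraries of polyadenylated RNA are not a measure of the mature microRNAs. The Mir208b row fell from 15.9 ± 1.54 CPM in controls to 8.56 ± 1.54 (SD, n = 4), a log2 fold change of -0.89 ± 0.14 (edgeR adjusted p = 0.00118), while its host Myh7 rose. This row was chosen after its values were seen. The strand setting of the counting is not given in the sources used here, so its reads could come from either strand. Rows antisense to Myh7, some of which also fell, are given under other observations. The Mir208a row measured 2.40 CPM in controls and 2.49 in cKO libraries and was not called (edgeR adjusted p = 0.913). Mir499 had 0 or 1 counts in each library.

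Myl3, the ventricular essential light chain (chr9:110741861-110769798, plus strand), measured 2028, 1899, 2090 and 2401 CPM in controls. It measured 1828, 2028, 1635 and 1879 CPM in cKO libraries, with overlap between genotypes. The log2 fold change was -0.19 ± 0.10 (edgeR adjusted p = 0.214) and was not called. Its share of the essential light chains was 97.2% ± 1.19 in controls and 94.9% ± 2.24 in cKO ventricles (SD, n = 4).

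Myl2, the ventricular regulatory light chain (chr5:122100951-122113472, plus strand), was the least variable of the 9 genes. Its highest cKO library exceeded the lowest by a factor of 1.09. Levels were 2940, 2645, 3090 and 3306 CPM in controls and 2592, 2834, 2700 and 2659 CPM in cKO libraries. These overlapped, and the log2 fold change of -0.15 ± 0.09 was not called (edgeR adjusted p = 0.284). Myl2 held 95.9% ± 3.59 of regulatory light chain in controls and 95.2% ± 2.04 in cKO libraries.

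The atrial light chains varied widely, with 3.06 to 5.41 times between the lowest and the highest library of a genotype. Myl4, the atrial essential light chain (chr11:104550663-104595753, plus strand), stood at 96.0, 25.8, 37.3 and 28.0 CPM in controls. In cKO libraries it stood at 79.2, 71.5, 39.1 and 167.5 CPM. Control replicate 1 was higher than 3 of the cKO libraries. The log2 fold change of 0.93 ± 0.46 was not called (edgeR adjusted p = 0.194). Without control replicate 1 it was 1.55 and passed (adjusted p = 0.0239), and without cKO replicate 4 it was 0.43 (adjusted p = 0.553).

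Myl7, the atrial regulatory light chain (chr11:5896637-5898782, minus strand), measured 92.6, 17.1, 32.5 and 17.4 CPM in controls and 44.7, 37.4, 20.8 and 63.6 CPM in cKO libraries. The highest and the lowest values of all 8 libraries were both in controls. Its log2 fold change was 0.06 ± 0.49 (edgeR adjusted p = 0.954), and the sign depended on single libraries. It was 0.89 without control replicate 1 (adjusted p = 0.107) and -0.22 without cKO replicate 4.

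The atrial chains made up a small part of their classes, by a measure that depends on the gene length used. Myl4 held 0.965% ± 0.705 of the essential light chains in controls and 2.00% ± 1.18 in cKO ventricles (SD, n = 4, exact permutation p = 0.2, adjusted 0.333). That difference of 1.04 percentage points was 0.476 without cKO replicate 4. Myl7 held 4.15% ± 3.59 and 4.84% ± 2.04 of the regulatory light chains (n = 4, exact permutation p = 0.743, adjusted 0.743). With the length of the longest transcript the Myl7 shares were 1.96% and 2.28%. The groups overlapped for both genes. The ratio of Myl4 to Myl7 in CPM did not overlap, at 1.04, 1.51, 1.15 and 1.61 in controls and 1.77, 1.91, 1.88 and 2.64 in cKO libraries. This ratio was chosen after its values were seen and was not tested.

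Some markers of atrial muscle were high in the same libraries and others were not. Of 15 atrial markers, 8 had their highest control value in replicate 1 and 11 their highest cKO value in replicate 4. How many of all tested genes were highest in these libraries was not counted, so an excess among atrial markers cannot be read from this. Nppa was highest in control replicate 4 and cKO replicate 3, Pam in replicate 3 of both genotypes, and Kcnj5 was lowest of the controls in replicate 1, at 171 CPM. Mybphl, Sln and Bmp10 are given by library as examples chosen after their values were seen. Mybphl, a myosin-binding protein of atrial muscle, measured 13.6, 1.57, 3.75 and 3.03 CPM in controls and 7.58, 8.44, 3.44 and 12.2 CPM in cKO libraries. The 4 libraries with the most Mybphl, control replicate 1 and cKO replicates 1, 2 and 4, were also the 4 highest for Myl4 and for Myl7. Between genotypes Mybphl was not called (log2 fold change 0.52 ± 0.55, edgeR adjusted p = 0.576), but it passed without control replicate 1 (1.49, adjusted p = 0.0317), as Myl4 did. Sln, the atrial calcium pump regulator sarcolipin, was at 12.3 CPM in control replicate 1 and at 1.67, 6.99 and 2.46 in the other controls, and at 8.65, 9.58, 2.61 and 15.1 CPM in cKO libraries. Bmp10, a growth factor of atrial muscle, stood at 3.26 CPM in control replicate 1, at 0.258 or below elsewhere and at 0 in control replicates 2 and 4.

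Of the 15 atrial markers, 14 were tested, 4 rose and 3 fell, with a median log2 fold change of 0.19. Over all tested genes 19.3% were called in either direction. Nppa (atrial natriuretic peptide) rose 7.17-fold (edgeR adjusted p = 5.93e-05), or 9.34-fold without control replicate 4. Pam, an enzyme of peptide hormone maturation, rose 1.65-fold (edgeR adjusted p = 8.27e-04). Kcnj3, an atrial potassium channel subunit, fell from 141.9 ± 33.0 to 48.2 ± 10.4 CPM (edgeR adjusted p = 2.34e-04). Summed over the list, levels were 1333 to 1643 CPM in controls, mainly from Pam. In cKO libraries they were 2269 to 2795 CPM, mainly from Pam and Nppa. The part of atrial tissue in the values of Myl4 and Myl7 was not tested.

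**Figure D3:**
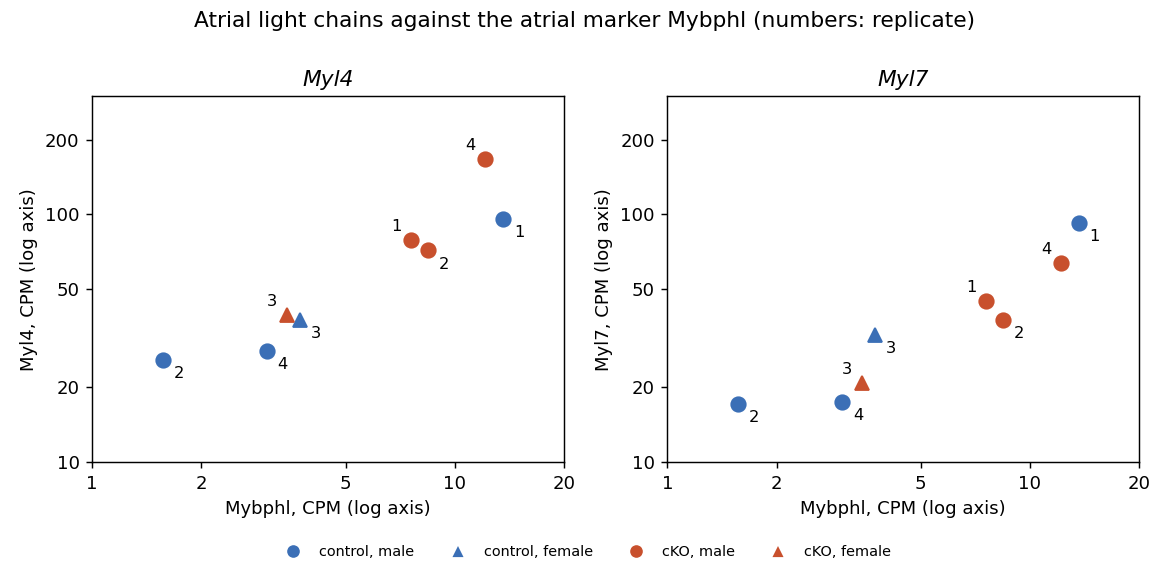
CPM of Myl4 and Myl7 (vertical, log axis) against CPM of the atrial marker Mybphl (horizontal, log axis), 1 point per library with its replicate number. The 4 libraries with Mybphl from 7.58 to 13.6 CPM are the 4 highest in both panels, and 1 of them is a control.

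Myl1, an essential light chain known mainly from fast skeletal muscle (chr1:66924295-66945404, minus strand), was at 34.4, 23.1, 70.8 and 30.1 CPM in controls. It was at 33.8, 29.3, 122 and 47.1 CPM in cKO libraries, with the female highest in each genotype. The log2 fold change between genotypes was 0.55 ± 0.44 and was not called (edgeR adjusted p = 0.442). It was -0.11 without the cKO female and 0.99 without the control female. Its share of the essential light chains was 1.80% ± 0.957 in controls and 3.06% ± 2.51 in cKO libraries (n = 4, exact permutation p = 0.486, adjusted 0.607). The difference of 1.26 percentage points was 0.0181 without cKO replicate 3.

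In a fit with genotype and sex, 0.486% of tested genes were called by sex, and Myl1 was among them. It was 2.86-fold higher in the females, a log2 difference of 1.52 ± 0.17 (edgeR adjusted p = 0.00211). Myh7 was 2.24-fold higher in the females and was not called (log2 difference 1.16 ± 0.26, edgeR adjusted p = 0.0804). These differences rest on 1 female library per genotype, so sex cannot be told apart from what else marked those libraries.

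Of 22 skeletal muscle markers 14 were tested, 3 rose and 2 fell, with a median log2 fold change of 0.17. For comparison, 19.3% of all tested genes were called in either direction. Without control replicate 4 the median was 1.35 and 6 rose, while the median was -0.18 without cKO replicate 3. It was -0.05, -0.07 and -0.08 when control replicates 1, 2 and 3 were omitted in turn, and -0.05 without cKO replicate 2. Their sum was 1400 to 2511 CPM in controls and 3095 to 3581 CPM in cKO libraries, with Tnnc2 and Myf6 at 0 in every library. Most of the sum in cKO libraries came from Acta1, skeletal alpha-actin, which ventricular muscle also makes and which rose 7.52-fold (edgeR adjusted p = 0.00317), or 14.9-fold without control replicate 4 (adjusted p = 6.35e-05). Acta1 was at 140, 215, 75.6 and 705.5 CPM in controls and at 1937 to 2523 CPM in cKO libraries. Mybpc2, fast myosin-binding protein C, rose 6.09-fold (edgeR adjusted p = 7.09e-05), or 7.72-fold without control replicate 4. Eno3, muscle enolase, fell 1.55-fold (adjusted p = 0.00136), and Cacna1s, the skeletal calcium channel, 2.36-fold (adjusted p = 0.00231). The 7 heavy chains of skeletal and special muscles summed to 79.6 CPM in control replicate 4 and to 0.317 to 2.24 CPM elsewhere. Of these 7 genes 1 had enough reads to be tested. With edgeR, DESeq2 and limma-voom 0 were called, with 0 at an unadjusted p under 0.05, and with no filter on low counts 3 were called lower. In control replicate 4 Myl1 was 30.1 CPM and lay between the values of the other male controls.

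Mylk3 encodes cardiac myosin light chain kinase, which phosphorylates Myl2 (chr8:85324303-85386345, minus strand). It measured 758.5, 886.7, 1036 and 871 CPM in controls and 1003, 1125, 1076 and 1049 CPM in cKO libraries. The female control lay inside the cKO range. The log2 fold change of 0.26 ± 0.10 was not called (edgeR adjusted p = 0.0882). It passed without control replicate 3, at 0.34 (adjusted p = 0.0295).

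The list of light chain kinases, phosphatase subunits and calmodulins held 16 genes, all tested, with a median log2 fold change of -0.02. With edgeR 0 rose and 1 fell, beside 19.3% of all tested genes called in either direction. At an unadjusted p under 0.05 the counts were 0 and 2. DESeq2 called 0 higher and 2 lower, and limma-voom 0 and 1. Without control replicate 3, 1 rose, and without cKO replicate 4, 2 fell. Mylk4, a kinase of the same family, fell 2.51-fold (edgeR adjusted p = 6.57e-04). Its level was 664, 585, 732 and 673 CPM in controls and 248, 279, 164 and 365 CPM in cKO libraries. The genotypes did not overlap, in contrast to Mylk3, and the cKO female was lowest.

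Of the 9 genes of smooth muscle and non-muscle myosin, which build stress fibres and the contractile ring, 3 rose. Among all tested genes 9.64% rose. The median log2 fold change of the 9 genes was 0.22, or 0.33 without cKO replicate 3. Myl12a, a non-muscle regulatory light chain, rose from 322 ± 30.5 to 505 ± 49.5 CPM (SD, n = 4), or 1.57-fold (edgeR adjusted p = 8.10e-04). Myh10, non-muscle heavy chain IIB, rose 1.61-fold (edgeR adjusted p = 0.00210) and Myh14, heavy chain IIC, 1.52-fold (adjusted p = 0.0133). The genotypes did not overlap for Myl12a and Myh10 and overlapped for Myh14. With edgeR, DESeq2 and limma-voom 0 of the 9 fell, and 0 had a lower level at an unadjusted p under 0.05. Fibroblast markers also rose, as given above, and their part in these counts was not tested.

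Folding and turnover of myosin was followed with 13 genes for chaperones and muscle ubiquitin ligases. Their median was -0.17, 1 rose and 3 fell, beside 19.3% of all tested genes called in either direction. Hsp90aa1, the inducible chaperone, rose from 105.6 ± 17.6 to 198 ± 40.9 CPM (SD, n = 4), or 1.87-fold (edgeR adjusted p = 0.00162). Trim55, a ligase of the sarcomere, fell by 0.42 on the log2 scale (edgeR adjusted p = 0.00140), and Trim63 by 0.26 (adjusted p = 0.0173). Smyd1, a methyltransferase that aids myosin assembly, fell by 0.30 (edgeR adjusted p = 0.0326). The number that fell was 1 in the males alone, with total counts, and without cKO replicate 1 or 2. Smyd1 did not pass when control replicate 1 or 4 or any 1 cKO library was left out (edgeR adjusted p = 0.0506 to 0.101), nor Trim63 without cKO replicate 1 or 2 (adjusted p = 0.0689 and 0.0509).

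Of 30 genes for transcription factors of cardiac muscle genes, 28 were tested, 1 rose and 6 fell, with a median of -0.09. Calls in either direction made up 19.3% of all tested genes. Gata6 fell from 90.1 ± 2.21 to 58.4 ± 1.19 CPM (SD, n = 4, log2 fold change -0.62, edgeR adjusted p = 9.38e-05). Mef2a fell by 0.46 (edgeR adjusted p = 7.16e-04). Hand2 fell by 0.48 (adjusted p = 0.00469), and Prox1, Sox6 and Thrb fell as well. Thrb encodes a thyroid hormone receptor, a class of receptor known to raise Myh6 and lower Myh7 transcription. Thra, the other listed gene of that class, was not called (log2 fold change -0.17, edgeR adjusted p = 0.234). Control means, not divided by gene length, were 94.0 CPM for Thra and 51.7 CPM for Thrb, so they do not rank these genes. A part of either receptor in the levels of Myh6 and Myh7 was not tested. The gene that rose was Nr2f2, 1.23-fold (edgeR adjusted p = 0.0446). It did not pass in the males alone, with limma-voom, or when control replicate 2, 3 or 4 or cKO replicate 1 or 4 was left out (adjusted p = 0.0620 to 0.132).

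**Figure D4:**
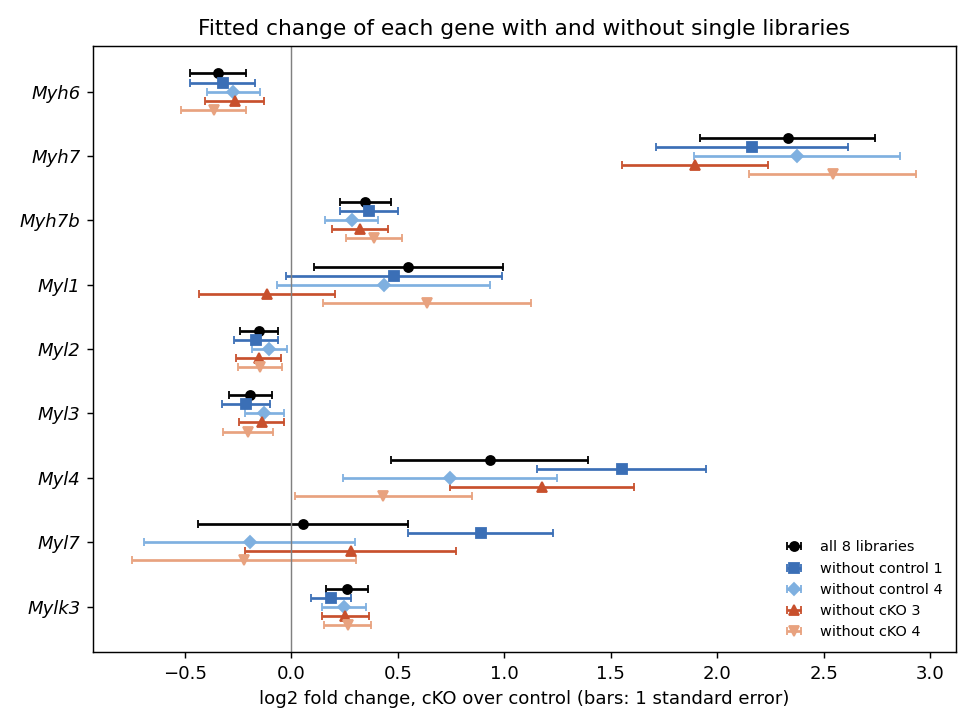
Log2 fold change of the 9 genes, cKO over control (horizontal), fitted on all 8 libraries and without each of 4 libraries, with bars of 1 standard error. Myh7 stays right of 1.5 in the fits shown, while Myl1, Myl4 and Myl7 move most, with Myl7 from -0.22 to 0.89.

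Correlations across the 8 libraries, after the mean of each genotype was subtracted from log2 CPM, describe which genes varied alongside a myosin gene. Samples share library depth and composition, and the genes named are the highest of 14025 candidates, so the values are descriptive. Myl4 and Myl7 had r = 0.95 with each other, and Myh6 and Myl3 had 0.90. Myh7 lay closest to Ulk4 (r = 0.99), Ccdc94 (0.98), Igdcc4 (0.98), Eif1 (0.97) and Ube2g2 (0.97). Myl4 lay closest to Rian (0.99), Ppm1j (0.98), Kif13b (0.98), Adck5 (0.96) and Sh2b1 (0.96). Myl7 lay closest to Kmt2d (0.99), Zfp579 (0.98), Pld2 (0.97), Adck5 (0.97) and Ppm1j (0.96). Adck5 and Ppm1j were close to both atrial light chains, which is no separate result because Myl4 and Myl7 varied together (r = 0.95).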

How the data were processed

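Heart ventricle RNA was sequenced as stranded mRNA libraries, per the labels' protocols. The authors deposited raw counts, 1 whole number per gene symbol and library. Per the submitters' processing notes, the tools included HISAT2 2.0.4 and featureCounts 1.6.0, besides edgeR 3.30.3 and FastQC 0.11.4. The builds named are GRCm38 and mm10. The annotation, the strand setting and the counting of multi-mapping reads were not given in the sources used here, so genes with near-identical stretches or antisense partners are uncertain. Of 54132 rows, 24 have a number in place of a symbol (0.115% to 0.132% of counts) and were left out.

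Genotypes were compared with edgeR 4.0.16 in R 4.3.3 (quasi-likelihood test, limma 3.58.1), by genotype alone, with TMM, filterByExpr and Benjamini-Hochberg adjustment over 16051 genes, two-sided. A standard error is the size of the log2 fold change over the root of its F statistic. Exon lengths and positions are from GENCODE M21 (GRCm38), and all 9 genes matched a RefSeq promoter entry. The members and lists were chosen with earlier results of these data known. Named are the 9 members, Rbpms, up to 3 called genes per list, markers at or near 0 and, for Myh7, Myl4 and Myl7, the 5 genes of mean CPM at least 1 most like them. Mybphl, Sln, Acta1, Smyd1, Prox1, Sox6, Thrb, Thra, Nr2f2 and rows of the Myh6 and Myh7 locus were named after their values were seen. Libraries of a genotype were checked for duplicates, and none were alike (chi-square per degree of freedom 7.96 to 35.0). The fit was tested on simulated counts. Alternatives were other scalings and filters, DESeq2 1.42.0, limma-voom, robust dispersions, sex as a covariate, males only and each library left out. The sex coefficient and a joint omission of control replicates 1 and 4 were added after seeing the data. Shares were also computed without length and with the longest transcript.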

Additional observations from a re-analysis of the deposited data

Results flagged for a closer look

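Of 34 groups of 4 libraries examined, for the CPM of each gene and its share, 2 held a library far from the other 3. Chance alone gives such a gap in about 1 of 20 groups. Both concern control replicate 1. Its Myl4 level of 96.0 CPM left a gap to the next control of 0.836 of the whole range, just past the critical value. Its Myl4 share of 2.01% of the essential light chains left a gap of 0.833 of the range. The same library had the highest Mybphl and Bmp10 of the 8, at 13.6 and 3.26 CPM. They were picked from 15 atrial markers after their values were seen, and others differed. Sln was higher in cKO replicate 4 (15.1 CPM) than in this library (12.3 CPM), and Kcnj5 was lowest of the controls here, at 171 CPM.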

How the results depend on the processing

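The rise of Myh7 passed the threshold under every alternative run, including robust dispersions (adjusted p = 0.0288). Away from leaving out single libraries, 97 recomputed fold changes of the 9 genes kept their direction and their side of the threshold. Another 10 newly passed it. For Myh7b these were total counts (0.43), upper-quartile factors (0.37), no filter (0.34), the DESeq2 test (0.34), sex as a covariate (0.36) and males only (0.44). For Mylk3 they were total counts (0.34) and the DESeq2 test (0.26), for Myl4 no filter (0.92), and for Myh6 the DESeq2 test (-0.35). The sign of Myl7 turned with sex as a covariate (-0.0093). The cause was not tested. With 1 library left out, fold changes ran from -0.44 to -0.27 for Myh6, 0.27 to 0.46 for Myh7b, -0.11 to 0.99 for Myl1, 0.43 to 1.55 for Myl4, -0.22 to 0.89 for Myl7 and 0.19 to 0.34 for Mylk3. Differences in share then ran from -0.13 to 2.46 percentage points for Myl7, 0.0181 to 1.82 for Myl1, 0.476 to 1.39 for Myl4 and 6.66 to 12.2 for Myh7. As shares of counts with no division by length, the Myl4 difference was 2.25 percentage points, and with the longest transcript the 5 differences between genotypes moved by less than 1 SD, although the Myl7 shares themselves went from 4.15% to 1.96% in controls and from 4.84% to 2.28% in cKO libraries. Without control replicates 1 and 4 together, Myl4 was 1.503 (adjusted p = 0.0816) and Myl7 0.75. With total counts only, 1021 genes were called lower against 1547, and 66.1% of calls were higher against 50.02%. No paired analysis was possible because the labels number the libraries consecutively over both genotypes. The replicate numbers 1 to 4 used here follow that order within a genotype, are only names and pair nothing. With 4 libraries per genotype an exact permutation p cannot go below 0.0286.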

Other observations

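Other rows of the Myh6 and Myh7 locus were read after their values were seen. Mhrt, a long noncoding RNA antisense to Myh7 (chr14:54968678-54974349, plus strand), fell from 95.9 ± 3.65 CPM in controls to 58.1 ± 9.95 in cKO ventricles (SD, n = 4). Its log2 fold change was -0.72 ± 0.11 (edgeR adjusted p = 0.00109). Levels were 98.9, 97.0, 97.0 and 90.6 CPM in controls and 65.7, 57.2, 44.4 and 65.1 CPM in cKO libraries, without overlap. The cKO female was lowest for Mhrt and highest for Myh7. Gm31251, also antisense to Myh7, fell from 54.8 ± 3.86 to 37.3 ± 6.13 CPM (edgeR adjusted p = 0.00588), and its genotypes did not overlap. Gm49130, antisense to Myh6, was at 19.2 and 18.9 CPM and was not called (edgeR adjusted p = 0.940). Gm17428, opposite Myh7, fell by 0.61 on the log2 scale (adjusted p = 0.0288), and Gm29015 was not called (edgeR adjusted p = 0.199). The exons of Mhrt and Gm31251 overlap those of Myh7 by 484 and 523 bases. The strand setting of the counting is not given in the sources used here, so reads of these strands cannot be told apart.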
